A study of Oryza sativa Japonica Group with 8 samples.

Results

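The results below concern 9 genes of the rice WRKY family, WRKY8 (Os05g0583000), Os01g0714800, Os01g0826400, OsWRKY45 (Os05g0322900), OsWRKY53 (Os05g0343400), OsWRKY70 (Os05g0474800), OsWRKY30 (Os08g0499300), OsWRKY13 (Os01g0750100) and OsWRKY72 (Os11g0490900). They were taken by gene ID from the 38978 IDs of the count tables, as family members outside the structural group called IIa. The choice was made with results of these libraries known. WRKY8 and Os01g0714800 are among the genes that the study picked for being higher in cold-shocked transgenic than in cold-shocked control seedlings. For that comparison the values of all 9 genes are therefore a description with no test. So are all comparisons of these 2 genes, which passed the filter on low counts only through the cold-shocked transgenic libraries. Os01g0714800 goes under the name OsWRKY24 in the study, but the reference table at hand lists OsWRKY24 and WRKY8 as synonyms of a single gene. That table pairs none of the 9 IDs with a name. The ID is therefore used, as it is for Os01g0826400, which the sources used here do not name.

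Shoots of Taipei 309 rice, 10 days after germination, were sampled for RNA-seq in 2 genotypes and 2 treatments. The transgenic seedlings (T) carried RD29A:DREB1a, the Arabidopsis transcription factor gene DREB1a under the cold- and stress-inducible Arabidopsis RD29a promoter, in a stack with the marker genes NPTII, GUS, GFP and pporRFP at a single Cre-lox site. The control seedlings (N) are wild type in the sample labels and the parental line in the study's text. Cold shock (CS) was 20 h on ice, and the others stayed at room temperature (RT), which gives the 4 groups T_CS, N_CS, T_RT and N_RT. Each group is 1 pool of RNA from 6 seedlings, from which 2 libraries were made. The labels give the T pools as homozygous lines 11, 20 and 29, chosen for a similar induction of the transgene, whereas the study's text lists lines 11 and 29. Because the 2 libraries of a group come from 1 pool, every SE and FDR below sets pool against pool, and variation from plant to plant was not measured. In whole shoots, fewer cells of a type and less RNA per cell cannot be told apart.

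WRKY proteins are plant transcription factors named for a conserved WRKY motif, and they bind W-box elements in the promoters of their targets. The family is best known in rice for defence against fungi, bacteria and insects, where its members act on the salicylate and jasmonate pathways both as activators and as repressors. Members also respond to cold, drought and salinity. DREB1 proteins bind a different element, the dehydration-responsive element.

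Total counts ranged from 18963211 to 24405824 per library, and the 2 libraries of each group correlated at 0.995 to 0.996 on the log2 scale. Levels are given as CPM, a gene's counts relative to the size of its library, after scaling by the trimmed mean of M values (TMM). CPM are not per transcript length, so they are compared between groups and not between genes. At this depth, 3 counts over a group, taken as the lower limit of detection, equal 0.0641 to 0.0799 CPM. Intervals for genes with few counts cover counting error only. All 9 genes passed the filter on low counts, but WRKY8 and Os01g0714800 did so only through their T_CS libraries. The transgene and the nuclear leaf markers could not be matched to an ID and were not checked. The tables give 15 plastid photosystem genes by symbol, looked up after the data were seen. Counted in every library were psaC (484 to 878 counts), psbB (58 to 249), psbK (8 to 27) and psbD (1 to 5). But 9 of the 15, psbA among them, were at 0 in all 8. The libraries were made from poly(A)-selected RNA, and no check of tissue is read from these counts.

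The first comparisons ask which of these genes answered cold shock within each genotype, and which differed between the genotypes without cold. The counts are over the 7 genes that passed the filter in every group, since WRKY8 and Os01g0714800 were picked for high T_CS levels and passed through T_CS alone. In T, 3 of the 7 rose with cold (Os01g0826400, OsWRKY30 and OsWRKY53) and 1 fell (OsWRKY13) at an FDR of 0.01 or less in edgeR's quasi-likelihood test, where 26.2% of all genes tested were higher and 26.2% lower. In N, 2 rose (Os01g0826400 and OsWRKY30) and 2 fell (OsWRKY13 and OsWRKY72), beside 19.7% of all genes higher and 21.1% lower. At room temperature, 4 were higher in T than in N (Os01g0826400, OsWRKY70, OsWRKY30 and OsWRKY45) and 1 was lower (OsWRKY13), beside 9.44% and 7.49% of all genes. The median log2 fold change of the 7 genes was 0.22 for cold in T, 0.01 for cold in N and 0.60 for T against N at room temperature, beside -0.01, 0.01 and 0.00 over all 28218 genes tested.

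**Figure D1:**
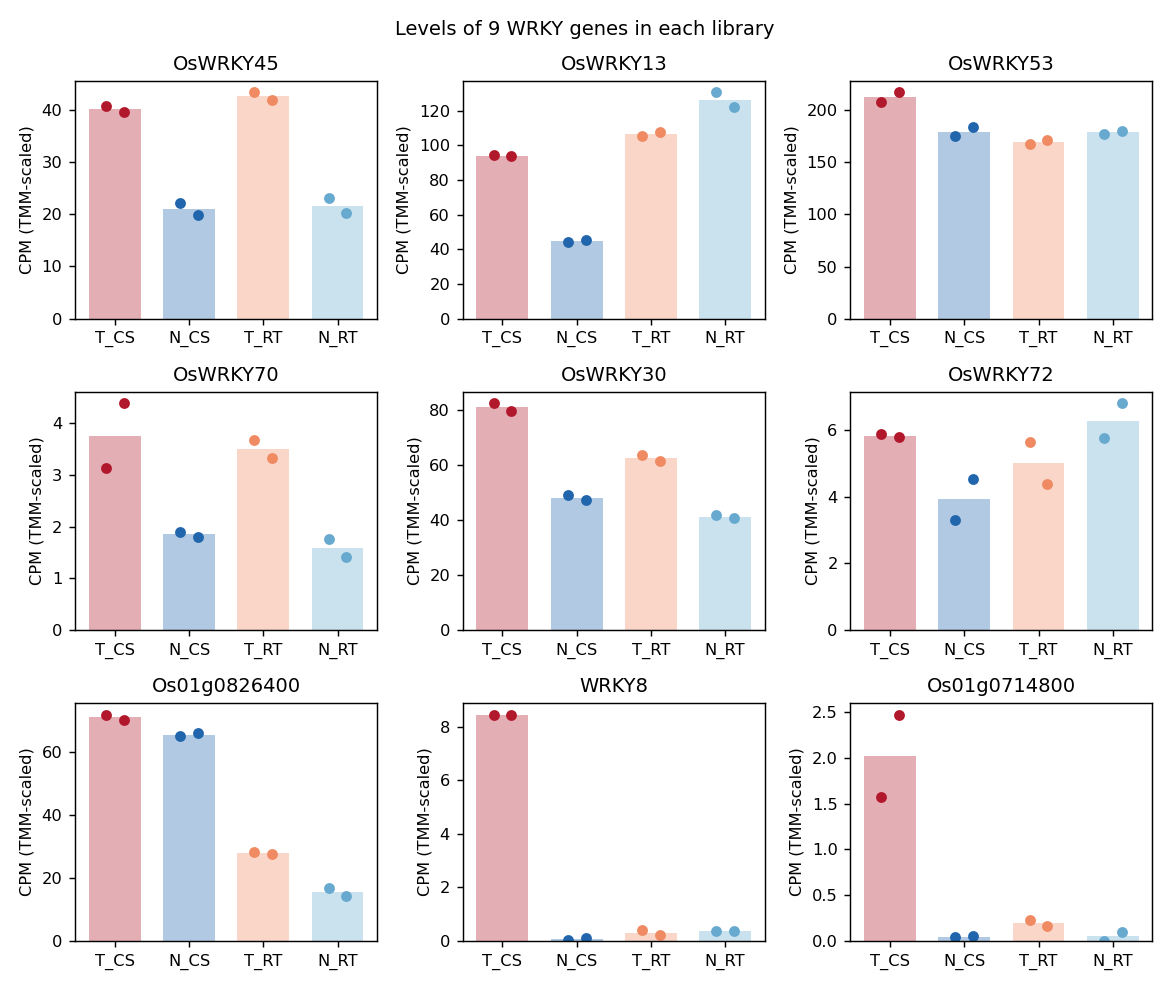
Level of each gene in TMM-scaled CPM (y axis, starting at 0, its own scale in each panel) in the groups T_CS, N_CS, T_RT and N_RT. Points are the 2 libraries of a group and bars their mean. WRKY8 and Os01g0714800 reached at least 8.43 and 1.57 CPM in the T_CS libraries and stayed at or below 0.408 and 0.226 CPM in the others. Both T libraries lay above both N libraries at each temperature for OsWRKY45, OsWRKY70, OsWRKY30, Os01g0826400 and Os01g0714800.

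OsWRKY45 was higher in T than in N at both temperatures and passed no test of cold. It is a regulator of the salicylate branch of rice immunity and is needed for blast resistance induced by benzothiadiazole. Its levels were 40.8 and 39.5 CPM in T_CS and 22.1 and 19.9 CPM in N_CS, against 43.3 and 41.8 CPM in T_RT and 23.0 and 20.2 CPM in N_RT. Every T library was above every N library, and the 2 N groups overlapped. At room temperature OsWRKY45 was 1.96-fold higher in T than in N (log2 fold change 0.97, SE 0.0745, FDR 1.02e-17). Cold gave a log2 fold change of -0.08 in T (SE 0.0704, FDR 0.307) and of -0.04 in N (SE 0.0834, FDR 0.697). After cold, the log2 fold change of T over N was 0.93 (SE 0.0786).

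OsWRKY70 was also higher in T, with 29 to 82 counts in each library. It is known for favouring defence against chewing insects over growth. Its libraries had 62 and 78 counts in T_CS and 43 and 35 in N_CS, against 81 and 82 in T_RT and 46 and 29 in N_RT. In CPM these were 3.14 and 4.38 in T_CS and 1.90 and 1.81 in N_CS, against 3.67 and 3.32 in T_RT and 1.77 and 1.41 in N_RT. As for OsWRKY45, all T libraries were above all N libraries, and the 2 T groups overlapped. The gene was 2.17-fold higher in T at room temperature (log2 fold change 1.12, SE 0.248, FDR 0.000291), a call that was lost without N_RT replicate 2, at an FDR of 0.0129, the highest of its alternatives, which began at 4.17e-05. After cold it was 1.01 higher on the log2 scale in T (SE 0.252). The cold response was 0.10 in T (SE 0.225, FDR 0.714) and 0.21 in N (SE 0.279, FDR 0.560), and the value in T turned negative under total count scaling and without T_CS replicate 2.

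OsWRKY30 differed by genotype and also rose with cold. Its overexpression is known to raise resistance to fungal pathogens. The levels were 82.2 and 79.6 CPM in T_CS and 49.0 and 47.0 CPM in N_CS, against 63.5 and 61.4 CPM in T_RT and 41.7 and 40.5 CPM in N_RT, with no overlap between any groups. T exceeded N by 1.52-fold at room temperature (log2 fold change 0.60, SE 0.0555, FDR 2.40e-14) and by 1.68-fold after cold (log2 fold change 0.75, SE 0.0548). Cold raised it by 0.37 in T (SE 0.0523, FDR 4.56e-09) and by 0.22 in N (SE 0.0582, FDR 0.000875) on the log2 scale. The call in N was lost in DESeq2 (FDR 0.0171), under total count scaling (FDR 0.100), and without N_CS replicate 1 (FDR 0.0273), N_RT replicate 1 (FDR 0.0188) or N_RT replicate 2 (FDR 0.0489), within a range over all alternatives of 7.25e-05 to 0.100.

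OsWRKY13 fell with cold in both genotypes, by more in N. It is a regulator of disease resistance that acts between the salicylate and jasmonate pathways. The levels were 94.3 and 93.9 CPM in T_CS and 44.1 and 45.6 CPM in N_CS, against 105 and 107 CPM in T_RT and 131 and 122 CPM in N_RT. No 2 groups overlapped, and the 2 N groups lay at the ends of the order. The fall with cold was 1.13-fold in T (log2 fold change -0.18, SE 0.0453, FDR 0.000521) and 2.83-fold in N (log2 fold change -1.50, SE 0.0487, FDR 9.48e-38). The call in T was lost in DESeq2 (FDR 0.0276) and without T_RT replicate 2 (FDR 0.0121), within a range of 5.26e-08 to 0.0276 over the alternatives. Between the genotypes, OsWRKY13 was lower in T at room temperature (log2 fold change -0.25, SE 0.0430, FDR 3.40e-06) and 1.07 higher on the log2 scale in T after cold (SE 0.0511).

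OsWRKY72 fell with cold in N, with 75 to 150 counts in each library. Its overexpression in rice has been tied to weaker jasmonate synthesis and greater susceptibility to bacterial blight. Its libraries had 116 and 103 counts in T_CS and 75 and 88 in N_CS, against 125 and 108 in T_RT and 150 and 140 in N_RT. In CPM these were 5.88 and 5.79 in T_CS and 3.32 and 4.54 in N_CS, against 5.66 and 4.37 in T_RT and 5.76 and 6.81 in N_RT. The N_CS libraries overlapped with those of T_RT, and the N_RT libraries with those of T_CS. Within N the gene fell by 0.68 on the log2 scale with cold (SE 0.181, FDR 0.00110), which was lost in DESeq2 (FDR 0.0195), without N_CS replicate 1 (FDR 0.0836) and without N_RT replicate 2 (FDR 0.0199), within a range of 0.000151 to 0.0836. The cold response in T was 0.22 (SE 0.178, FDR 0.278), with both T_CS libraries above both T_RT libraries. T against N gave -0.32 at room temperature (SE 0.170, FDR 0.173) and 0.58 after cold (SE 0.188).

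OsWRKY53 moved least. It responds to fungal elicitors and its protein is a substrate of defence MAP kinases. It had 207 and 217 CPM in T_CS and 175 and 184 CPM in N_CS, against 167 and 172 CPM in T_RT and 177 and 180 CPM in N_RT, and the mean of the highest group was 1.25 times that of the lowest. The T_CS libraries were above all others, and the 2 N groups overlapped. Cold raised it 1.25-fold in T (log2 fold change 0.32, SE 0.0367, FDR 7.51e-12), and this call held in every alternative fit. In N the value was 0.01 (SE 0.0368, FDR 0.900), and its sign changed under 7 alternatives. T against N gave -0.07 at room temperature (SE 0.0366, FDR 0.138) and 0.24 after cold (SE 0.0369). Under total count scaling the difference at room temperature passed the threshold, at -0.15 and an FDR of 0.00112.

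Os01g0826400 rose with cold in both genotypes. Its libraries had 1419 and 1249 counts in T_CS and 1469 and 1282 in N_CS, against 627 and 685 in T_RT and 434 and 295 in N_RT. In CPM these were 71.9 and 70.2 in T_CS and 64.9 and 66.1 in N_CS, against 28.4 and 27.7 in T_RT and 16.7 and 14.3 in N_RT. All 4 cold libraries exceeded all 4 room-temperature libraries, and no groups overlapped. Cold raised it 2.53-fold in T (log2 fold change 1.34, SE 0.0634, FDR 4.40e-29) and 4.20-fold in N (log2 fold change 2.07, SE 0.0697, FDR 7.61e-37). It was 1.80-fold higher in T than in N at room temperature (log2 fold change 0.85, SE 0.0773, FDR 1.78e-14). After cold the genotypes differed by 0.12 on the log2 scale (SE 0.0575). This value depended on the scaling, at 0.0399 under total count scaling and 0.003 under upper quartile scaling. Over all alternatives it ranged from 0.003 to 0.152.

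WRKY8 was counted almost only in cold-shocked transgenic seedlings. The libraries had 167 and 150 counts in T_CS and 1 and 2 in N_CS, against 9 and 5 in T_RT and 10 and 8 in N_RT. In CPM these were 8.46 and 8.43 in T_CS and 0.0442 and 0.103 in N_CS, against 0.408 and 0.202 in T_RT and 0.384 and 0.389 in N_RT. The T_CS libraries stood far above the rest, the room-temperature groups overlapped and N_CS was lowest. T_CS was 27.7-fold above T_RT (log2 fold change 4.79, SE 0.324), which is a description with no test, because the T_CS level chose the gene.

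In N, WRKY8 had 3 counts in N_CS and 18 in N_RT, or 0.185 of the N_RT level after library scaling (95% counting interval 0.0349 to 0.633). The N_CS level is one of those by which WRKY8 was picked, so this too is a description. At room temperature, the fitted log2 fold change of T over N was -0.36 (SE 0.542), from 14 counts in T_RT and 18 in N_RT. No test is given for it, because WRKY8 passed the filter through T_CS alone. Without T_RT replicate 2 the sign of this fold change was reversed. After cold, T had 317 counts and N had 3, which is 118 times as many after library scaling (95% counting interval 40.1 to 577).

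The next ID in the tables after WRKY8, Os05g0583050, had its counts in the same libraries. It had 66 and 70 counts in T_CS and 1 and 0 in N_CS, against 4 and 4 in T_RT and 5 and 5 in N_RT. Its sums were 136 in T_CS, 1 in N_CS, 8 in T_RT and 10 in N_RT, beside 317 in T_CS, 3 in N_CS, 14 in T_RT and 18 in N_RT for WRKY8. The libraries were made with a kit that keeps strand, but the strand setting of the counting is not given in the sources used here, nor are the positions of the 2 IDs, so whether they share reads was not tested. Of the IDs next to any of the 9 genes, none had counts within 1.25-fold of that gene in all 8 libraries. Os05g0583050 was that near in 2 libraries, and an ID next to OsWRKY13 in 5. A check for near-equal counts cannot find reads shared at another ratio, so nothing is concluded from it about shared reads.

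**Figure D2:**
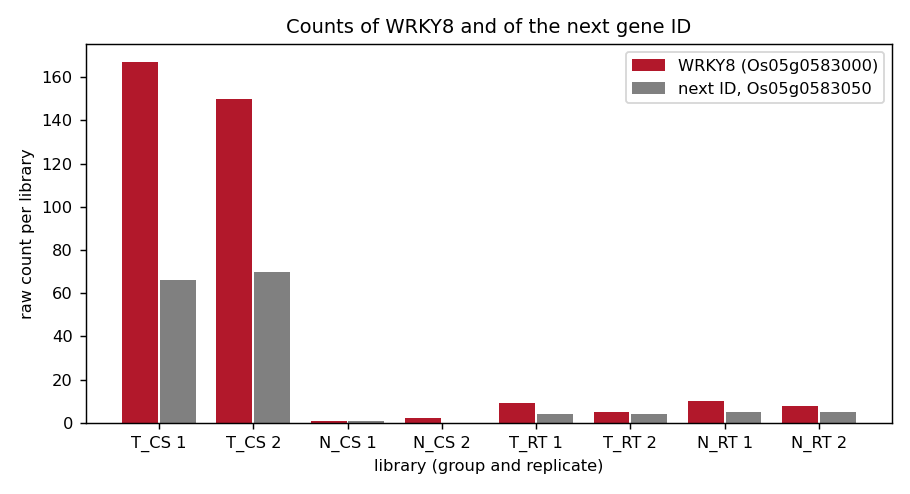
Raw counts (y axis) of WRKY8 and of the next gene ID, Os05g0583050, in each of the 8 libraries (x axis, group and replicate number). The 2 T_CS libraries had 167 and 150 counts of WRKY8 and 66 and 70 of its neighbour, and no other library had more than 10 of either.

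Os01g0714800 was also counted mainly in T_CS. Its libraries had 31 and 44 counts in T_CS and 1 and 1 in N_CS, against 5 and 4 in T_RT and 0 and 2 in N_RT. In CPM these were 1.57 and 2.47 in T_CS and 0.0442 and 0.0516 in N_CS, against 0.226 and 0.162 in T_RT and 0 and 0.0972 in N_RT. T_CS was above T_RT, and T_RT above both N groups, which were under the detection limit of 3 counts. T_CS was 10.2-fold above T_RT (log2 fold change 3.35, SE 0.560), again with no test, because the T_CS level chose the gene. No fold change is given for cold in N, with 2 counts in each group. At room temperature T had 9 counts and N had 2, or 4.48 times as many after scaling (interval 0.928 to 42.6), also with no test. After cold T had 75 and N had 2, or 42.0 times as many (interval 11.2 to 353).

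**Figure D3:**
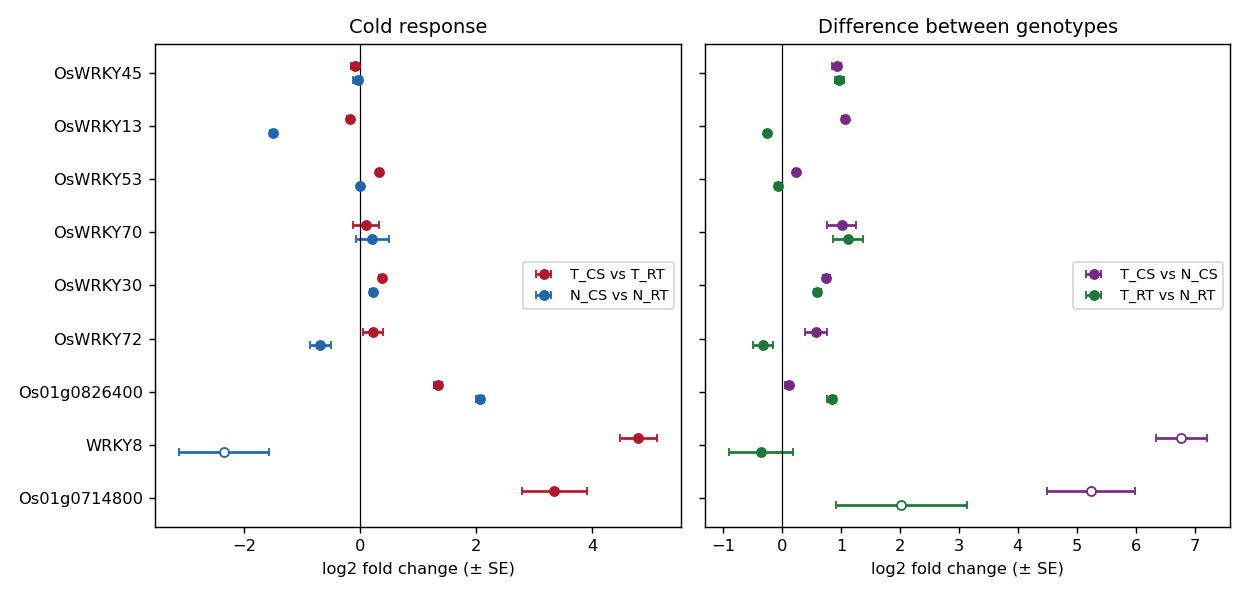
Fitted log2 fold changes (x axis, bars are the SE) of the 9 genes (y axis) for cold in T and in N (left) and for T over N after cold and at room temperature (right). Open points rest on a group with 3 counts or fewer, and cold in N is left out for Os01g0714800. OsWRKY13 and WRKY8 lie furthest below 0 for cold in N, at -1.50 and -2.34, and OsWRKY45 and OsWRKY70 lie near 1 in both comparisons of genotypes.

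After cold shock, both T libraries were above both N libraries for all 9 genes under TMM scaling, an arrangement that 33.8% of all genes tested showed. The study's own cut for picking genes, a log2 fold change of at least 2 with an FDR of 0.01 or less, was passed by the 2 that it had picked, WRKY8 and Os01g0714800, and by 2.39% of all genes. The median log2 fold change of the 9 was 0.93, beside -0.05 for all genes tested. Since the genes were chosen with this comparison known, nothing is read from these counts. At room temperature 5 of the 9 had both T libraries above both N libraries, beside 30.2% of all genes. These were Os01g0714800, Os01g0826400, OsWRKY70, OsWRKY30 and OsWRKY45. Os01g0714800 is counted here with no test, from 9 counts in T_RT and 2 in N_RT. Since all 9 were above after cold, these 5 were above at both temperatures, as 11.9% of all genes were. At room temperature 3 others had both T libraries below both N libraries (OsWRKY53, OsWRKY13 and OsWRKY72), beside 29.6% of all genes. These 3 therefore lay on opposite sides at the 2 temperatures, as 9.21% of all genes did. The shares of 11.9% and 9.21% are over genes not chosen with their side after cold known. Nothing is therefore read from setting the members beside these 2 shares. The libraries of WRKY8 overlapped at room temperature.

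The cold responses of the 2 genotypes are set side by side here with no test of their difference, which contains the comparison by which genes were chosen. The difference of the log2 fold changes, T minus N, was 7.13 for WRKY8 (SE 0.825), which rests on 3 counts in N_CS. None is given for Os01g0714800, with 2 counts in each N group. The difference was 1.32 for OsWRKY13 (SE 0.0669), 0.91 for OsWRKY72, 0.32 for OsWRKY53 and 0.15 for OsWRKY30. It was -0.04 for OsWRKY45, -0.11 for OsWRKY70 and -0.73 for Os01g0826400. Os01g0826400, the last of these, had the larger fold change in N, where its room-temperature level was the lower one. WRKY8 and OsWRKY72 had cold libraries wholly above those at room temperature in T and wholly below them in N, as did 8.54% of all genes. Nothing is read from that share, since the T_CS and N_CS levels of the members were known when they were chosen.

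**Figure D4:**
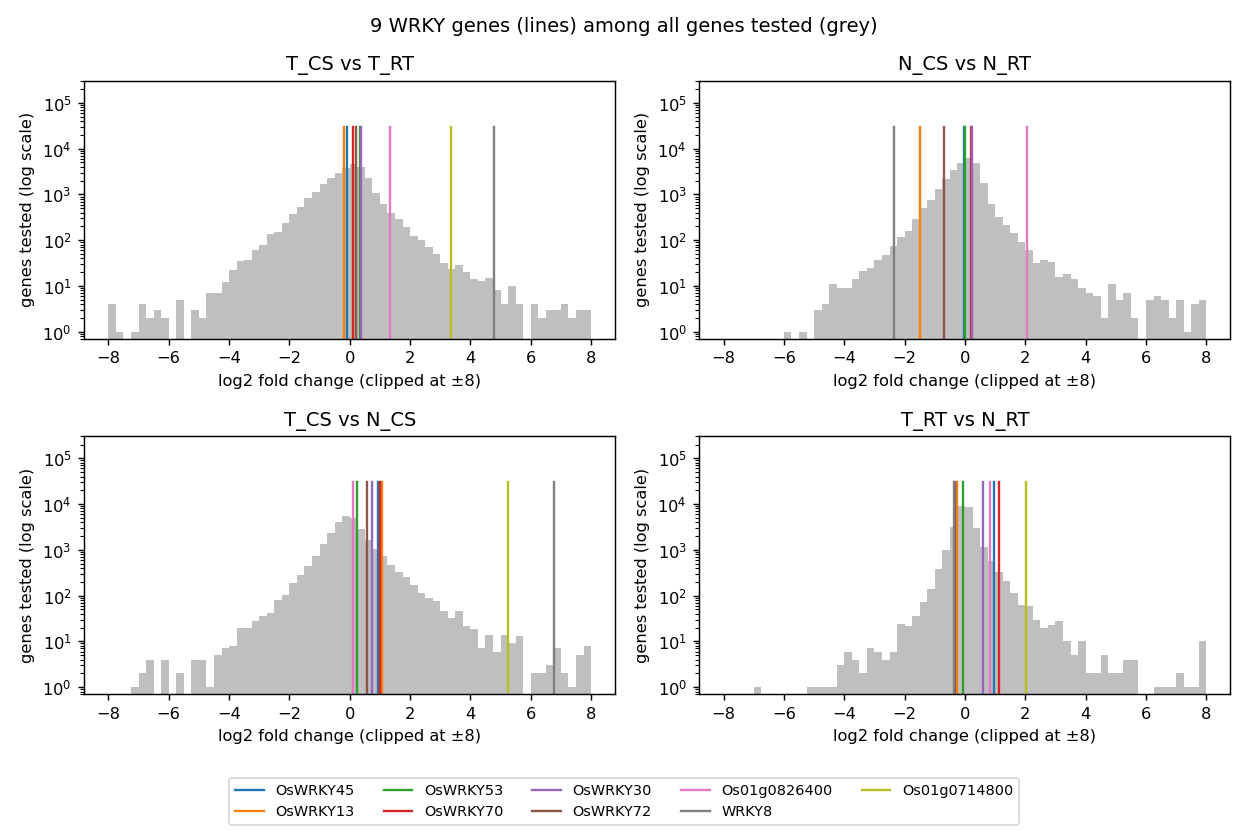
Fitted log2 fold changes (x axis, clipped at 8 in either direction) of the 9 genes as vertical lines over the histogram of all 28218 genes tested (grey, number of genes on a log scale) in the 4 comparisons. The lines spread on both sides of 0 for cold in N, from -2.34 to 2.07, and all lie above 0 for T_CS against N_CS. Os01g0714800 is left out of cold in N.

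The study's own list of WRKY genes higher in T_CS than in N_CS holds 6 more (OsWRKY108, OsWRKY76, OsWRKY67, OsWRKY113, OsWRKY62 and OsWRKY15), and OsWRKY76 and OsWRKY62 belong to group IIa. Their T_CS and N_CS levels chose them, so their direction after cold is no independent evidence. Their cold responses are likewise a description with no test. With cold in T, the log2 fold change was above 0 for 5 of the 6, led by OsWRKY108 at 3.63 (SE 0.155). It was -0.78 for OsWRKY62 (SE 0.127), and the median was 1.25, beside -0.01 over all genes. With cold in N, 2 were above 0 and 4 below, with a median of -0.24, beside 0.01 over all genes. In the N groups, OsWRKY108, OsWRKY67, OsWRKY113 and OsWRKY15 had means of only 0.309 to 0.933 CPM. At room temperature 3 of the 6 were higher in T, OsWRKY108 at 2.55, OsWRKY76 at 3.35 and OsWRKY62 at 3.24, beside 9.44% of all genes, and the median was 1.64. DESeq2 also called 3. These 3 reached a log2 fold change of 2 at room temperature with an FDR of 0.01 or less, as did 0.553% of all genes. None of the 7 genes that passed the filter in every group did so. The study picked the 6 for being higher in T after cold but did not pick the 7, so nothing is read from this contrast. Of the 2 members picked in the same way, Os01g0714800 had a fitted 2.02 (SE 1.11), from 9 counts in T_RT and 2 in N_RT. WRKY8 had -0.36, and both values are given with no test.

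The genes whose pattern was most like each member were sought among the 51 other tested genes that the study names with an ID, by Pearson's r of log2(CPM + 1) over the 8 libraries, which stand for 4 pools. For WRKY8 these were OsTPS3, a terpene synthase gene (r = 0.997), and Lip5, a water-stress gene (0.996). For Os01g0714800 they were OsOPR6, of the oxophytodienoate reductase family of jasmonate synthesis (0.994), and a bHLH148-like gene (0.984). OsWRKY53 was closest to OsLEA2 (0.980) and a receptor kinase gene, Os05g0486100 (0.970). OsWRKY45 was closest to the alcohol dehydrogenase gene ADH2 (0.971) and to OsRBOH (0.938), OsWRKY30 to ADH1 (0.980) and OsERF109b (0.974), and OsWRKY70 to OsERF109b (0.968) and ADH1 (0.914). Os01g0826400 had r = 0.851 with OsDREB1G and 0.849 with OsDREB1C, which are themselves cold-responsive transcription factor genes of the DREB1 group. The lowest values were those of OsWRKY13 and OsWRKY72, both closest to a trehalose-6-phosphate synthase gene, Os08g0414700 (0.767 and 0.725), followed by OsUSP36 (0.760) and OsGH3-8 (0.700). Most of the 51 genes were themselves picked by the study as higher in T_CS than in N_CS, and the libraries of a group share a pool.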

How the data were processed

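RNA-seq libraries of 4 RNA pools, 2 libraries a pool and 8 in all, were used. The authors trimmed reads with Trimmomatic, aligned them to IRGSP-1.0 with STAR and counted them per gene with featureCounts 1.6.4, and the deposited values are whole-number counts per gene ID that are not normalized. How strand and reads with several matches were treated in the counting is not given in the sources used here, so copies or overlapping IDs could share reads.

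Tests were run with edgeR 4.0.16 (R 4.3.3). Of 38978 IDs, 28218 passed its filter on low counts (filterByExpr, minimum count 10, minimum total 15). All 8 libraries were TMM-scaled and entered 1 quasi-likelihood fit of the 4 group means, and p-values were adjusted by Benjamini-Hochberg (FDR) over all genes tested. A gene "rose" or "fell" at an FDR of at most 0.01. With 1 to 3 counts in a group, the ratio of scaled summed counts is given with its exact 95% counting interval. With both groups at 3 or fewer, no fold change is given.

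Members and lists were chosen with earlier results of these data known. Named are all 9 members, the other 6 WRKY genes of the study's table, and the 2 genes most like each member among those the study names with an ID. Os05g0583050 was named after its values were seen. Of the file IDs, 1 was found in the reference table, from another build, so no sequence, position or further WRKY gene was used.

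The same-numbered libraries of different groups did not deviate together (correlations from -0.0197 to 0.0115), so the numbers do not pair them. Library pairs differed by more than counting noise (chi-square per degree of freedom 1.71 to 2.39) and were counted as 2. The alternatives were DESeq2 1.42.0, other scalings, filters, thresholds and pseudocounts, fewer libraries in the fit, a likelihood ratio test, a replicate block and leaving out each library. The fits were tested on simulated data.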

Additional observations from a re-analysis of the deposited data

Results flagged for a closer look

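For 3 genes the difference between the genotypes after cold lay opposite to that at room temperature, with every T library above every N library after cold and below every N library at room temperature. The log2 fold change of T over N was 1.07 after cold and -0.25 at room temperature for OsWRKY13, a gap of 1.32. It was 0.58 and -0.32 for OsWRKY72, a gap of 0.91, and 0.24 and -0.07 for OsWRKY53, a gap of 0.32. The room-temperature values of OsWRKY72 and OsWRKY53 did not pass the test (FDR 0.173 and 0.138). The side after cold was known when the genes were chosen. The room-temperature side alone, both T libraries below both N libraries, was shown by 29.6% of all genes tested.

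For WRKY8 and OsWRKY72, both cold libraries lay above both room-temperature libraries in T and below them in N. The cold response of WRKY8 was 4.79 in T and -2.34 in N, a gap of 7.13 on the log2 scale that rests on 3 counts in N_CS, and that of OsWRKY72 was 0.22 in T and -0.68 in N, a gap of 0.91. The value of OsWRKY72 in T did not pass the test (FDR 0.278). These gaps were not tested, because they contain the comparison by which genes were chosen, and the 2 libraries of a group come from 1 pool.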

How the results depend on the processing

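The replicates are technical, so all ranges below compare pools. The counts here are over all 9 genes, so they include WRKY8 and Os01g0714800, whose T_CS levels chose them. No test is given for these 2 genes, so nothing is read from how steady the totals are. Over the 7 genes of the Results, the main fit gave 3 higher and 1 lower for cold in T. It gave 2 and 2 for cold in N, and 4 and 1 at room temperature. The counts for T_CS against N_CS describe the cut used in choosing. A log2 fold change of at least 1 beside the FDR left 3 higher and 0 lower for cold in T (from 5 and 1). Of the 3, only Os01g0826400 is among the 7 genes of the Results. Cold in N kept 1 higher and 2 lower, WRKY8 and OsWRKY13 (from 2 and 3), and of these 2 only OsWRKY13 is among the 7. T_RT against N_RT kept 1 higher and 0 lower (from 4 and 1). T_CS against N_CS had 4 higher (in place of the 2 past a log2 fold change of 2). DESeq2 called 0 lower for cold in T, and 1 higher and 1 lower for cold in N. Total count scaling called 1 higher for cold in N and 2 lower at room temperature. Under a minimum count of 50, 1 gene passed for T_CS against N_CS and 4 were higher for cold in T, since Os01g0714800 was no longer tested and has no value there. With only the 4 libraries of the comparison, 2 were lower for cold in N, where WRKY8 was not tested. Leaving out each library in turn gave 5 higher and 0 to 1 lower for cold in T, 1 to 2 higher and 1 to 3 lower for cold in N, 3 to 4 higher and 1 lower at room temperature, and 2 higher and 0 lower after cold, with a lone library assumed to vary like the other groups. Relaxing the FDR to 0.05 changed none of these counts. With the replicate number as a block, the counts stayed at 5 and 1, 2 and 3, 4 and 1, and 2 and 0, and no member's call changed.

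Signs changed only for values that did not pass the test and for a value of WRKY8 that is given with no test. OsWRKY53, cold in N, gave -0.0055 in DESeq2, -0.0028 with RLE size factors, -0.10 with total count scaling, -0.0069 with only the 4 libraries of the comparison, and -0.042 to 0.044 on leaving out each library. OsWRKY45, cold in N, gave 0.0015 with upper quartile scaling and -0.17 to 0.027 on leaving out each library. OsWRKY70, cold in T, gave -0.013 with total count scaling and -0.15 to 0.33 without single libraries. Without single libraries, the fitted value was -0.91 to 0.072 for WRKY8, T_RT against N_RT. The cause was not tested.

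Total count scaling moved the median log2 fold change of all genes for cold in T to -0.13, and upper quartile scaling that of T_CS against N_CS to -0.16. The share of calls that were higher was 50% for cold in T, 48.3% for cold in N, 55.8% at room temperature and 50.7% after cold. Total count scaling made these 39.4%, 32.9%, 35.8% and 41.1%, and upper quartile scaling 42.7%, 54.6%, 58.8% and 37.1%. With a pseudocount of 0.25 or 4, 12 of 36 places among the 2 most alike genes were held by another gene than before. Some of these were only the same 2 genes trading ranks, for Os01g0826400 at 4 and for OsWRKY13 and OsWRKY72 at 0.25. Depth limits WRKY8 and Os01g0714800 outside T_CS, where a group had 18 counts or fewer.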
